A study of Homo sapiens with 6 samples.

Results

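IL18, CASP4 and 8 further genes of the inflammasome pathway were described in HCT116 cells sorted by CD133. HCT116 is an established human colorectal carcinoma line, and CD133 is a surface glycoprotein, encoded by PROM1, that has been used to enrich tumour-initiating cells. The data comprised 6 arrays of total RNA, 3 from CD133-positive and 3 from CD133-negative HCT116 cells, with repetitions 1, 2 and 3 in each fraction. The labels give no treatment or genotype that separates the fractions beyond the sort, and both come from 1 cell line. Whether a repetition was its own culture or its own sort is not stated in the labels, and p-values therefore cover the spread of these arrays alone, which may be technical.

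The genes were chosen from a list of 10 symbols: IL18, IL18BP, IL18R1, CASP4, CASP1, CASP5, PYCARD, GSDMD, NLRP1 and IL1B. A gene was measured where a probe set carried its symbol alone, and where a gene has several the brightest on average stands for it. This gave 9 of the 18404 genes in the table, each with 1 probe set. NLRP1, a sensor that nucleates inflammasomes, shares its probe set with a second symbol and is not reported. The list was built around IL18 and CASP4 because both had passed a threshold in the same comparison of fractions, so the differences of all 9 genes between fractions are given as a description without a test.

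Inflammasomes are cytosolic complexes in which a sensor, often through the adaptor PYCARD (also called ASC), activates the protease caspase-1. Caspase-1 cleaves the precursors of the cytokines IL-1 beta and IL-18 and cleaves gasdermin D, which forms pores in the plasma membrane. In human cells caspase-4 and caspase-5 bind bacterial lipopolysaccharide directly and also cleave gasdermin D. Intestinal epithelium is known to hold IL-18 precursor without an inflammatory stimulus, whereas IL-1 beta is mainly a product of activated myeloid cells. The arrays measured transcripts, and neither cleavage nor secretion was measured.

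The ligand IL18 was higher in CD133-positive cells in every repetition. Its probe set (7951686) read 7.78, 7.37 and 8.09 in CD133-positive repetitions 1, 2 and 3, against 6.31, 5.998 and 6.12 in the CD133-negative ones, on the log2 scale of RMA signal used throughout (RMA is an array normalization that ends in 1 log2 value per probe set). The lowest CD133-positive array lay above the highest CD133-negative array. CD133-positive cells averaged 7.75 ± 0.36 and CD133-negative cells 6.14 ± 0.16 (SD, n = 3 each). Within repetitions the log2 difference was 1.47, 1.38 and 1.97, with a mean of 1.61 ± 0.32 (SD, n = 3), which is 3.04-fold. The fold was 2.77 and 2.59 in repetitions 1 and 2 and 3.92 in repetition 3. Among all 18404 genes IL18 ranked 9 by absolute difference. In bulk RNA of this kind, fewer cells expressing a gene and less RNA per cell cannot be told apart.

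CASP4, the lipopolysaccharide-binding inflammatory caspase, was also higher in CD133-positive cells in every repetition. Its probe set (7951372) read 6.08, 6.19 and 6.27 in CD133-positive cells, against 5.26, 5.13 and 4.92 in CD133-negative cells. The groups did not overlap, and the CD133-positive arrays lay closer together (6.18 ± 0.10) than the CD133-negative ones (5.10 ± 0.17; SD, n = 3 each). The difference was 0.81, 1.07 and 1.35 in repetitions 1, 2 and 3, with a mean of 1.08 ± 0.27 (SD, n = 3), or 2.11-fold. For CASP4, as for IL18, repetition 3 gave the widest gap between fractions. CASP4 ranked 33 of 18404 by absolute difference.

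**Figure D1:**
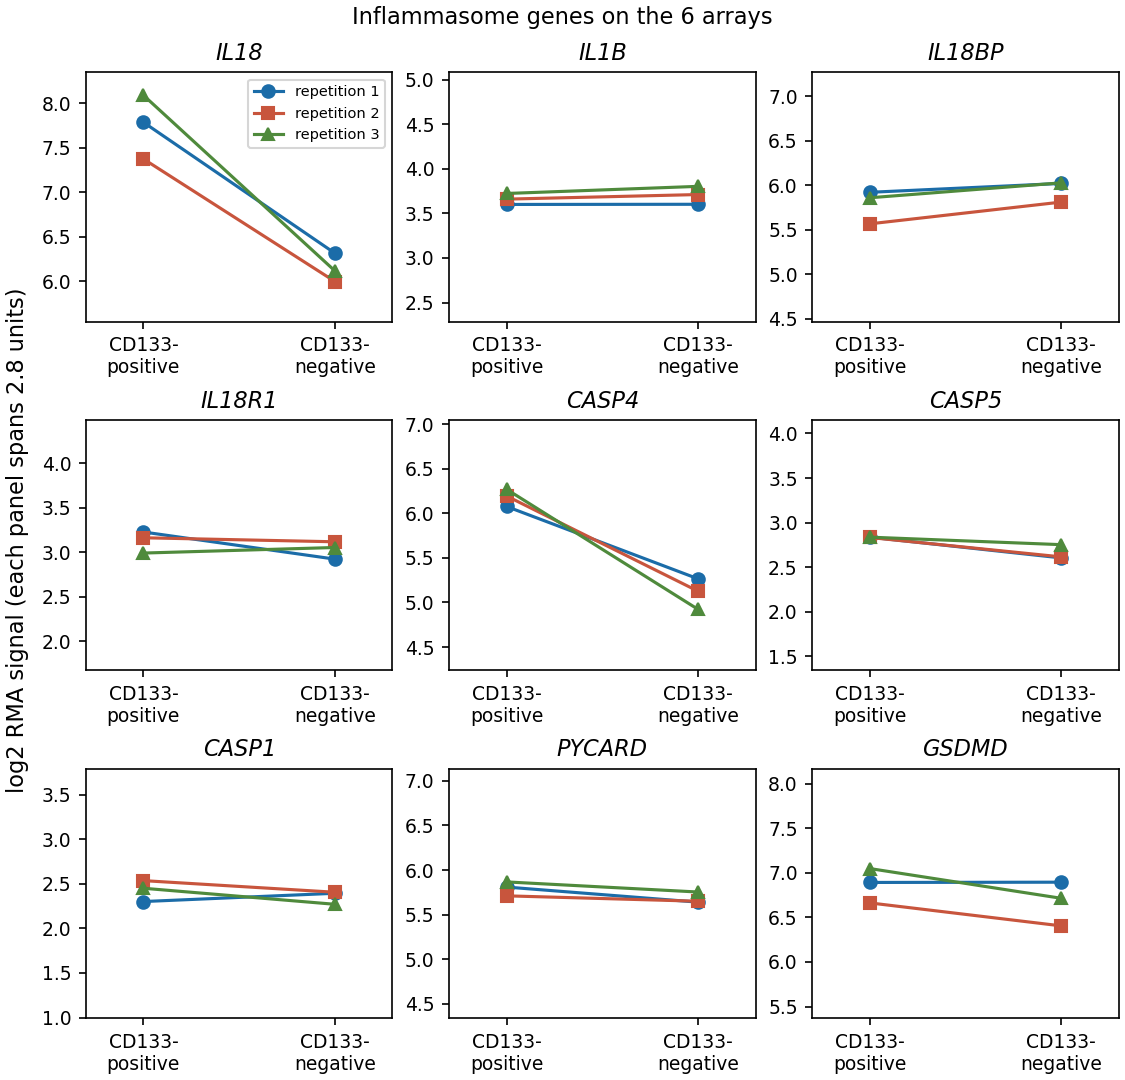
Log2 RMA signal (vertical axis, 2.8 units in every panel) of the 9 measured genes in CD133-positive cells (left) and CD133-negative cells (right); each line joins the arrays of 1 repetition. IL18 and CASP4 descend steeply from CD133-positive to CD133-negative in all 3 repetitions, and the other panels are nearly level.

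With limma and repetition as a block, 2 of the 9 genes, IL18 and CASP4, lay past an adjusted p of 0.05, against 68 of 18404 genes (0.369%) in either direction and 36 (0.196%) in the higher direction. The comparison is the one that brought these genes into the list, so nothing is read from that count. With group as the only term, 0 of the 9 lay past the threshold, against 1 of 18404 genes (0.00543%). With the block, the count was 0 of the 9 without repetition 3, 1 (IL18) without repetition 2, and 0 when the 4091 rows left out as controls were also tested. Among the 9, 7 had a mean difference above 0, against 47.9% of all genes. The groups did not overlap for 3 (IL18, CASP4 and CASP5, all higher), against 3.43% of all genes in that direction. These counts also include IL18 and CASP4, so nothing is read from either. The median difference was 0.11 over the 9 genes and -0.0064 over all genes. Leaving out IL18 and CASP4, the 7 other genes ranged from -0.17 to 0.20 with a median of 0.10.

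CASP5 and CASP1 are relatives of CASP4 that follow it on 1 side in the caspase cluster of chromosome 11. CASP5 (probe set 7951385) read 2.84, 2.83 and 2.84 in CD133-positive cells, against 2.60, 2.62 and 2.75 in CD133-negative cells. The fractions did not overlap, but the mean difference of 0.18 ± 0.08 (SD, n = 3) was small. CD133-positive repetitions 1 and 3 held the same CASP5 value to 6 decimals, as happened between arrays for 164 genes (0.891%). CASP1, the caspase that matures IL-1 beta (probe set 7951397), read 2.30, 2.54 and 2.45 in CD133-positive cells, against 2.39, 2.41 and 2.27 in CD133-negative cells. The CASP1 groups overlapped and repetition 1 went the other way, with differences of -0.093, 0.13 and 0.18.

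The promoters of CASP4 and CASP5 are shown because these neighbouring paralogs had unequal differences, 1.08 and 0.18. Each is the RefSeq window from 250 bases before to 50 bases after the annotated start, on the minus strand of GRCh38.p14, at chr11:104968525-104968824 for CASP4 and chr11:105023119-105023418 for CASP5. Capitals mark each GGAA, the core of sites bound by ETS transcription factors, on either strand (TTCC where it lies on the strand opposite to the printed one).
CASP4: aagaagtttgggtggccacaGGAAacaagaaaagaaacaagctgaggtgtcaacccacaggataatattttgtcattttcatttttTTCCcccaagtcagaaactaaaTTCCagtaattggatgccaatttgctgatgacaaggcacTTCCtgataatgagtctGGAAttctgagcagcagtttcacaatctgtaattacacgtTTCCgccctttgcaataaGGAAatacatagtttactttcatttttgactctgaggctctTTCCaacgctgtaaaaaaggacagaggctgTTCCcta
CASP5: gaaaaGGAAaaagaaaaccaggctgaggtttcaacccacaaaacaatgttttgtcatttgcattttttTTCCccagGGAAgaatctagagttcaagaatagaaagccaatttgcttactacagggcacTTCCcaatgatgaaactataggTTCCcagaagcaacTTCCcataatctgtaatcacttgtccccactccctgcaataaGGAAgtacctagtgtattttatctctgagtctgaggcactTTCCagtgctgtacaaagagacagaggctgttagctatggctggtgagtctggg
A global alignment placed 275 bases of the windows side by side, of which 222 were identical (80.7%). The same alignment gave 60.5% to 75.4% for the other pairs among the CASP4, CASP5, PYCARD and IL1B windows. GGAA occurred 9 times in the CASP4 window (3 on the printed strand and 6 on the other) and 8 times in the CASP5 window (3 and 5). It occurs at least once in 95.5% of the 35116 promoter windows of the RefSeq table, and 8 or more times in 3.78% of them. These matches describe letters and not bound sites. The promoter table matched 6 of the 10 listed genes.

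PYCARD and GSDMD, the adaptor and the pore-forming protein, differed little between the fractions. PYCARD (probe set 8001030) read 5.81, 5.71 and 5.87 in CD133-positive cells, against 5.64, 5.65 and 5.75 in CD133-negative cells. It was higher in 3 of 3 repetitions by 0.11 ± 0.05 (SD, n = 3), with groups that overlapped. GSDMD (probe set 8148642) read 6.89, 6.66 and 7.05 in CD133-positive cells, against 6.90, 6.41 and 6.71 in CD133-negative cells. Its differences of -0.0029, 0.26 and 0.33 left repetition 1 level while repetitions 2 and 3 were higher, and the mean of 0.20 was about the size of its SD of 0.18 (n = 3).

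IL1B, the other cytokine precursor in the list, was close to level. Its probe set (8054722) read 3.60, 3.66 and 3.72 in CD133-positive cells, against 3.60, 3.71 and 3.80 in CD133-negative cells. The mean difference was -0.044 ± 0.040 (SD, n = 3), from -0.0019, -0.051 and -0.080 in repetitions 1, 2 and 3. The sign was negative in 3 of 3 repetitions, but repetition 1 was level and the groups overlapped.

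The genes that limit or receive the IL-18 signal were close to level. IL18BP, a secreted protein that neutralises IL-18, read 5.92, 5.57 and 5.86 in CD133-positive cells, against 6.02, 5.81 and 6.03 in CD133-negative cells (probe set 7942300). It was lower in CD133-positive cells in 3 of 3 repetitions, by -0.10, -0.24 and -0.17, opposite in direction to IL18. IL18R1, the ligand-binding receptor chain, read 3.23, 3.16 and 2.99 in CD133-positive cells, against 2.92, 3.12 and 3.05 in CD133-negative cells (probe set 8044035). The IL18R1 groups overlapped, and the difference of 0.30 in repetition 1 was not repeated in repetition 2 (0.045) or 3 (-0.062). In all, 4 of the 9 genes were higher in all 3 repetitions (17.7% of all genes were) and 2 were lower in all 3 (18.4% of all genes were). The 4 were CASP5, PYCARD and the genes that this comparison brought into the list, IL18 and CASP4, so nothing is read from that count. The 2 were IL18BP and IL1B, and IL1B differed by only -0.0019 in repetition 1.

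**Figure D2:**
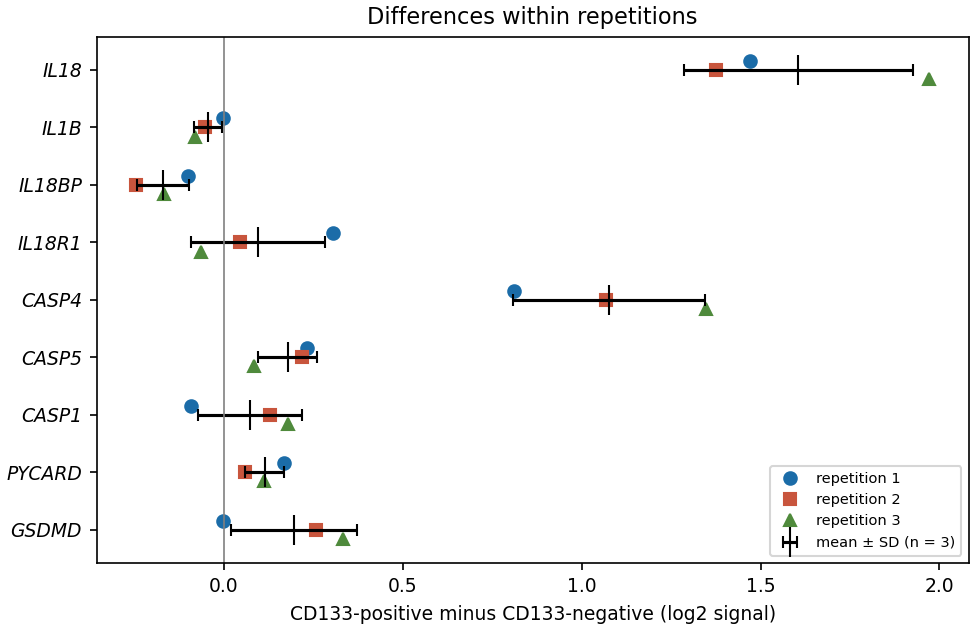
CD133-positive minus CD133-negative log2 signal (horizontal axis) for each measured gene, with coloured points for the 3 repetitions and a black tick and bar for their mean ± SD. IL18 (1.38 to 1.97) and CASP4 (0.81 to 1.35) stand to the right in every repetition, and the 7 other genes have means between -0.17 and 0.20.

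The mean signal of 7 of the 9 genes lay below the median of gene means of 6.20; IL18 and GSDMD lay above it. The table carries no detection calls, so whether CASP1, CASP5, IL18R1 and IL1B, with means of 2.39 to 3.68, were above background was not measured. Small differences of these genes are limited by that.

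How the genes varied between repetitions does not use the comparison of fractions, so it was tested. With limma's F test of repetition, 0 of the 9 genes passed an adjusted p of 0.05, against 15.3% of all genes, and 1 of them (GSDMD) had an unadjusted p under 0.05, against 38.4% of all genes. GSDMD averaged 6.89, 6.53 and 6.88 over both fractions in repetitions 1, 2 and 3 (limma adjusted p = 0.117). For GSDMD the range of 0.36 between repetitions was wider than the mean difference of 0.20 between fractions. IL18 averaged 7.05, 6.69 and 7.10 over the repetitions (limma adjusted p = 0.181), a range of 0.42 against a difference of 1.61 between fractions. CASP4 averaged 5.67, 5.66 and 5.60 (limma adjusted p = 0.900), so its average over both fractions was nearly the same in each repetition. From repetition 1 to 3 the fractions moved in opposite directions, from 6.08 to 6.27 in CD133-positive cells and from 5.26 to 4.92 in CD133-negative cells. An average over fractions does not show such a change.

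The rest of the pathway was followed through 9 other lists with 105 entries, of which 92 were measured. With limma and the block, 0 of the 92 passed in either direction, 8 had an unadjusted p under 0.05 (11.6% of all genes did), 43 were higher and 49 were lower, and the median difference was -0.025. Other inflammasome sensors and adaptors had 6 of 14 members higher and a median of -0.038. NLRP6, a sensor of intestinal epithelium, had a difference of -0.31 ± 0.06 and was lower in 3 of 3 repetitions (limma adjusted p = 0.241). NAIP, which recognises bacterial flagellin, had -0.29 ± 0.19 (SD, n = 3; limma adjusted p = 0.359). Inhibitors and regulators of inflammasomes had 6 of 13 members higher and a median of -0.0013, with the serpin gene SERPINB9 at 0.17 and the pyrin-only gene PYDC2 at -0.15.

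Other gasdermins and genes of membrane rupture had 2 of 5 members higher, and GSDME, a gasdermin opened by an apoptotic caspase, had a difference of -0.19 and NINJ1, a mediator of membrane rupture, -0.15. Among other IL-1 family ligands 3 of 9 were higher, with the receptor antagonist gene IL1RN at -0.21 and IL1F10 at -0.12. Among IL-1 family receptors 5 of 9 were higher, with IL1R1, the signalling receptor of IL-1, at 0.14 and IL1RAPL1 at 0.13. The MyD88 signalling proteins that act downstream of these receptors had 7 of 10 members higher and a median of 0.050, with the kinase gene IRAK1 at 0.11 and the adaptor gene TAB2 at 0.086. None of these genes passed.

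Genes that sense lipopolysaccharide and other microbial products, with the guanylate-binding proteins, had 5 of 11 members higher; TLR3, a receptor for double-stranded RNA, had 0.32 ± 0.41 and TLR2, a receptor for lipoproteins, -0.14 ± 0.24 (SD, n = 3 each). Interferon receptor and regulator genes, which are known to control transcription of CASP4, CASP1 and GSDMD, had 6 of 14 members higher and a median of -0.078. Of the 14, 5 had an unadjusted limma p under 0.05 (11.6% of all genes did) and 0 passed. Of the 5, IFNGR1 and IRF1 were higher, and JAK1, JAK2 and IRF9 were lower. IFNGR1, the ligand-binding chain of the interferon gamma receptor, averaged 7.65 ± 0.04 in CD133-positive cells, against 6.96 ± 0.28 in CD133-negative cells (SD, n = 3 each). Its difference of 0.69 was positive in 3 of 3 repetitions and did not pass (limma adjusted p = 0.0891 with the block, 0.683 without). JAK1, a kinase of the same receptor, had -0.28 (limma adjusted p = 0.333 with the block). Among other caspases 3 of 7 were higher, with the initiator gene CASP9 at 0.25 ± 0.04 and CASP8, the caspase of death receptors, at 0.18 ± 0.07 (SD, n = 3 each), and neither passed.

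**Figure D3:**
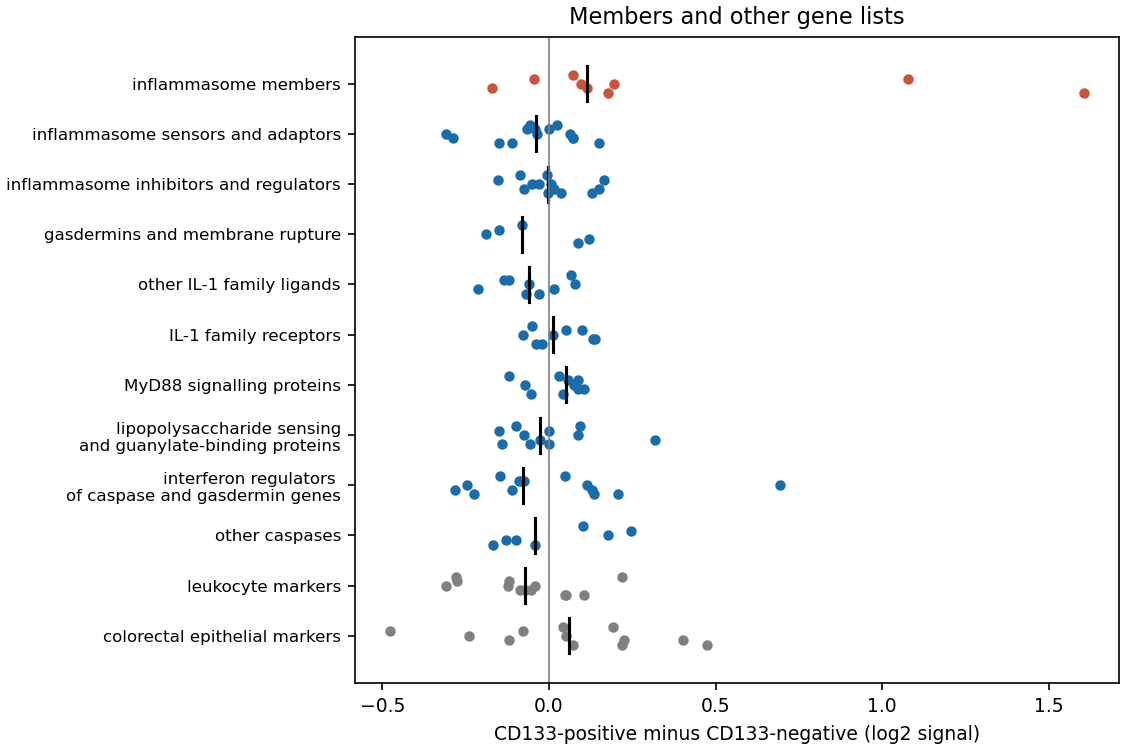
CD133-positive minus CD133-negative log2 difference (horizontal axis) of each measured gene (points) by list, with the median of each list as a black line; the 9 inflammasome members are red, other pathway lists blue and cell type markers grey. IL18 at 1.61 and CASP4 at 1.08 are the points farthest right, followed by IFNGR1 at 0.69.

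Genes whose signal ran most like that of IL18 or CASP4 over the 6 arrays were taken from 1863 genes with a mean above the median and an SD of at least 0.3. The correlations describe 6 arrays that share 2 fractions and 3 repetitions. For IL18 the highest Pearson correlations were with PSMB9, a subunit of the immunoproteasome (0.979), the formin gene FHOD1 (0.969), the autophagy gene ATG12 (0.965), the metalloprotease gene ADAM19 (0.943) and ARHGAP18 (0.942). PSMB9 read 6.72, 6.51 and 6.89 in CD133-positive cells, against 6.24, 5.91 and 6.12 in CD133-negative cells, so in both fractions repetition 2 was the lowest, as for IL18. For CASP4 they were ATG12 (0.977), the cytidine deaminase gene APOBEC3C (0.977), ARHGAP18 (0.977), the heparan sulphate enzyme gene HS3ST1 (0.965) and ST14, a membrane serine protease gene (0.960). ATG12 and ARHGAP18 appear beside both genes, with differences between fractions of 0.60 and 1.09. IL18 and CASP4 vary mostly between fractions, so a gene with a steady difference between fractions correlates with both. Nothing is read from the shared names.

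The measured genes on either side of IL18 and CASP4 were examined after the data had been seen. Of 10 neighbours of IL18, 5 on each side in chromosome order, 0 passed with limma and the block. An unadjusted limma p under 0.05 was found for 3 of them, against 11.6% of all genes. The differences of the 10 ran from -0.13 to 0.55, and the highest was that of PIH1D2, whose mean signal was only 3.09. The nearest on one side, SDHD, a subunit of respiratory complex II, had 0.35 ± 0.15 and was higher in 3 of 3 repetitions (SD, n = 3; limma adjusted p = 0.241), and the nearest on the other, TEX12, a meiotic gene, had 0.047. Of 10 neighbours of CASP4, 0 passed and 1 had an unadjusted limma p under 0.05 (11.6% of all genes did), with differences from -0.31 to 0.18. The nearest on the side away from CASP5 was CASP12, annotated as a transcribed pseudogene, at -0.042. CARD16 and CARD18, caspase-1 inhibitor genes of the same cluster, had 0.035 and -0.074.

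**Figure D4:**
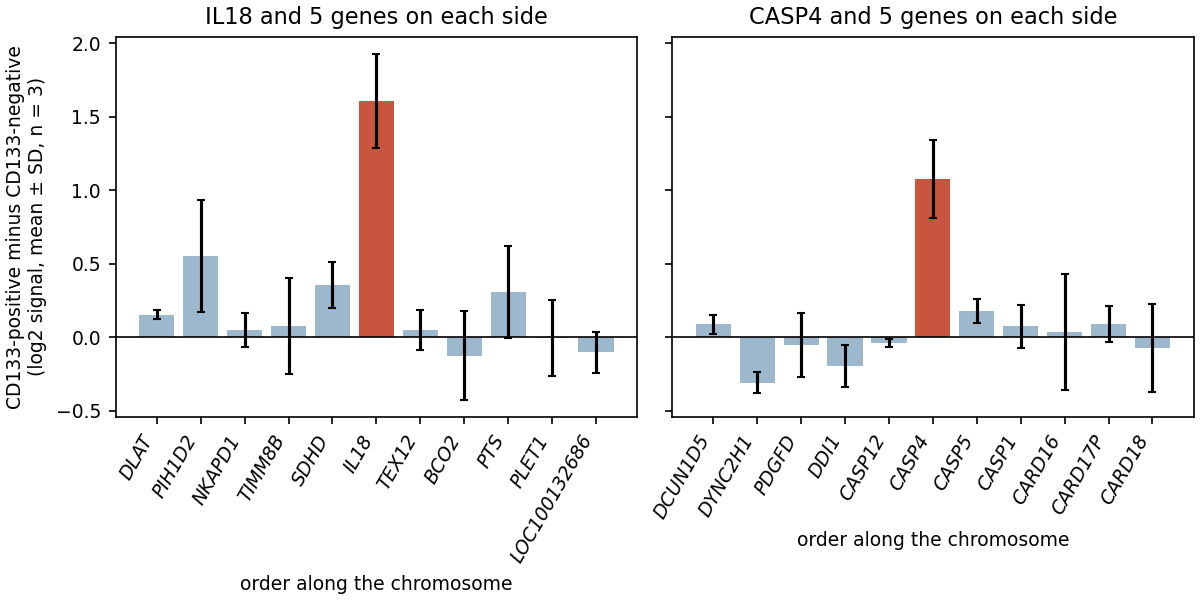
Mean CD133-positive minus CD133-negative log2 difference ± SD over 3 repetitions (vertical axis) for IL18 (left panel, red), CASP4 (right panel, red) and the 5 nearest measured genes on each side (blue), in chromosome order. The red bars stand at 1.61 and 1.08, and the blue bars lie between -0.31 and 0.55.

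The sort was checked on PROM1, whose difference was 2.29, 2.90 and 3.12 in repetitions 1, 2 and 3. Of 12 colorectal epithelial markers 8 were higher and 4 lower, 0 passed, and 4 had an unadjusted limma p under 0.05 (11.6% of all genes did). Of these 4, CLDN7, a tight junction gene, was higher (0.48 ± 0.16, SD, n = 3), and so was CDH1 (0.40 ± 0.33, SD, n = 3). The keratin genes KRT18 (-0.48 ± 0.05, SD, n = 3) and KRT8 (-0.24) were lower. Each kept its direction in 3 of 3 repetitions, and the groups overlapped for CDH1 alone. EPCAM, which marks epithelium and was picked after the data were seen, read 11.11 ± 0.12 in CD133-positive cells, against 10.89 ± 0.12 in CD133-negative cells (SD, n = 3 each). Its groups overlapped, and the differences of 0.35, 0.37 and -0.059 in repetitions 1, 2 and 3 changed direction in repetition 3. EPCAM and KRT18 each have 2 probe sets carrying their symbol alone, and only the brighter on average is given. Of 13 measured leukocyte markers, relevant because leukocytes carry many of these transcripts, 4 were higher and 9 lower, and 0 passed (0 also at an unadjusted limma p under 0.05). The summed log2 signal of the leukocyte markers was 55.7 to 56.5 in CD133-positive and 54.9 to 59.2 in CD133-negative arrays. Such a sum of log2 values does not measure leukocyte content. CD68 had a difference of 0.22 ± 0.16 and CD53 -0.31 ± 0.36 (SD, n = 3 each). PTPRC, the pan-leukocyte marker, averaged 2.44 in CD133-positive cells, against 2.34 in CD133-negative cells.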

How the data were processed

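Total RNA of 6 samples was hybridised to Affymetrix arrays. The deposited values are log2 signals made by the authors with RMA, per the labels; the scale was read from the values (1.09 to 13.7). Row identifiers are those of the Human Gene ST annotation, which was used, although a U133 array is named in the design text. Of 32321 rows, a leading block of 4091 without genes was left out as controls; of the 28230 probe sets tested, 19158 carried 1 symbol, 1388 several and 7684 none. Array medians lay between 5.44 and 5.60, and precision is limited by having 3 arrays per fraction. The fit was limma 3.58.1 in R 4.3.3 (lmFit, eBayes) with fraction and repetition as terms and Benjamini-Hochberg adjustment over 28230 probe sets at 0.05; it was tested on simulated data. Pairing came from the rule that defined the genes; in the data, deviations of same-numbered arrays correlated at 0.447 to 0.616. Genes named besides the members were those past the threshold in each list, or else the 2 of smallest unadjusted p, and the 5 most correlated with IL18 and CASP4. EPCAM, PTPRC, KRT8, CDH1, IRF1, IRF9, JAK2, CARD16, CARD18 and the chromosome neighbours were added after the data were seen. A neighbour was any gene with a measured symbol, by its order in RefSeq. Members and lists were chosen with earlier results of these data known. Promoters were aligned with Biopython 1.88 (match 1, mismatch -1, gap opening -2, extension -0.5). Alternatives covered the block, the rows tested, normalization, filters on dim probe sets, the summary per gene, the variance trend and leaving out each repetition.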

Additional observations from a re-analysis of the deposited data

How the results depend on the processing

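The differences of the 9 genes moved by less than the SD between repetitions in all 88 recomputed values, and 1 changed sign (IL18R1, -0.0086 without repetition 1). Most of these values could not have moved that far. The block, the rows tested, the filters, the variance trend and the summary per gene leave each difference unchanged. Leaving out 1 of 3 repetitions cannot shift a mean by a full SD. Only the changes of normalization could have done so. Leaving out each repetition gave 1.42 to 1.72 for IL18 and 0.94 to 1.21 for CASP4. The calls were less stable. The comparison is the one that brought IL18 and CASP4 into the list, so their calls are given as a description only. Against 2 of the 9 genes past the threshold with the repetition block, 0 passed with no replicate block (limma adjusted p = 0.142 for IL18 and for CASP4), 0 with all rows of the table tested (0.109 and 0.161), and 1 where only probe sets with a mean signal above 6 were kept, a filter that removes CASP4. Leaving out a repetition gave 0 to 2: 0 without repetition 3 (0.0980 for IL18 and 0.156 for CASP4) and 1 without repetition 2 (0.115 for CASP4). Among all genes 68 passed with the block and 1 without it (639 at an unadjusted p under 0.05), 0 with all rows (1764), 313 with means above the median, 358 with means above 6, 312 with the mean of the probe sets of a gene, 256 with a variance trend, and 0 to 32 without 1 repetition (0 without repetition 3, with 1380 at an unadjusted limma p under 0.05, 11 without repetition 2 and 32 without repetition 1). The mean of the probe sets of a gene and both filters on dim probe sets test fewer rows. Otherwise the cause was not tested. GSDMD differed between repetitions with those filters (limma adjusted p = 0.0421 and 0.0333). The median difference over all genes stayed between -0.016 and 0.012 on the log2 scale under every setting listed.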
